A study of Drosophila melanogaster with 2 samples.

Results

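Tetraspanins are small membrane proteins that cross the lipid bilayer several times and expose a small and a large loop outside the cell. They bind one another and partner proteins such as integrins, proteases and adhesion proteins, and so gather them into patches of membrane. In mammals they are also abundant in endosomes and in the vesicles that cells release. One fly member, Tsp2A, belongs with Mesh and Snakeskin (Ssk) to the smooth septate junctions that seal the midgut epithelium. The genes described here are the other tetraspanins of Drosophila melanogaster, chosen as all loci of the deposited transcript table whose symbol begins with Tsp and a digit, without Tsp2A and without loci shared by several genes, plus lbm (late bloomer). They number 32 of the 13822 loci in the table, and 29 of them had a read in any library. The counted transcript of each was the one with the highest mean read count.

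RNA was sequenced from posterior midguts of 9-day-old females in 2 conditions. In the Gli-RNAi condition RU486 was given, a steroid that switches on the driver 5966GS-GAL4 and through it UAS-Gli-RNAi, which per the labels depletes gliotactin in enterocytes, the absorptive cells of the gut. In the Control condition flies of the same strain, with both transgenes, were given ethanol, so the RNAi was not induced. The labels give the genotype of both conditions as wild type although both carry these transgenes. Each condition has 3 libraries from 75 midguts that were pooled at RNA extraction. The labels call the libraries biological replicates, but do not make clear whether they come from separate pools of midguts. Since midguts were pooled, p-values reflect variation among libraries, part or all of which may be technical. An effect of RU486 itself and that of the knockdown cannot be told apart.

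With 1 transcript per locus, the Gli-RNAi libraries held between 8111031 and 14303722 reads and the Control libraries between 6821908 and 10914491. Normalised counts are reads divided by each library's TMM scaling factor, set to average 1, and log2 fold changes are Gli-RNAi over Control with their SE. Gli had 882, 895 and 920 normalised counts in Gli-RNAi libraries, against 2066, 1973 and 1847 in Control libraries, a log2 fold change of -1.13 ± 0.059 (adjusted p = 1.2e-09 in the quasi-likelihood test of edgeR). The RNA levels of several cell type markers also differed between the conditions. All 5 listed markers of intestinal progenitors rose, and their summed level was 342 to 362 CPM (reads per 1000000 scaled reads) in Gli-RNAi libraries, against 111 to 125 in Control libraries. Of 6 enterocyte markers 1 rose and 3 fell, and their sum was 3911 to 4032 CPM in Gli-RNAi and 11308 to 11584 CPM in Control libraries. Most of that gap came from mag, a lipase gene, and the other 5 enterocyte markers summed to 3072 to 3168 CPM in Gli-RNAi and 4104 to 4322 CPM in Control libraries. The median log2 fold change of the 6 was -0.18, nub rose by 0.64, and Myo31DF and cad did not pass the test. Of 9 enteroendocrine markers 1 rose and 5 fell, with sums of 577 to 607 CPM in Gli-RNAi and 785 to 788 CPM in Control libraries. All 4 markers of the copper cell region, a more anterior part of the midgut, fell, with sums of 161 to 173 CPM in Gli-RNAi and 248 to 266 CPM in Control libraries. All 4 markers of Malpighian tubule and hindgut fell too, with 42.9 to 52.1 CPM in Gli-RNAi and 91.7 to 98.9 CPM in Control libraries. The 2 tested fat body genes fell, with sums over all 4 listed of 97.9 to 104 CPM in Gli-RNAi and 289 to 310 CPM in Control libraries. Of 9 visceral muscle markers 2 rose, 1 fell and 6 did not pass the test, with a median log2 fold change of -0.06. The 2 that rose were Zasp52 and sls, with log2 fold changes of 1.48 and 0.49. The sums of the 9 were 1487 to 1517 CPM in Gli-RNAi and 1347 to 1452 CPM in Control libraries. Of 5 listed tracheal markers 4 were found by name among the loci, without btl, and 2 rose. Their sums were 25.6 to 27.6 CPM in Gli-RNAi and 19.5 to 21.7 CPM in Control libraries over the 4 found. Of the 4 tested of 6 neuronal markers none passed the test, with sums of 13.9 to 15.7 CPM in Gli-RNAi and 11.6 to 18.7 CPM in Control libraries, and VGlut had 0 reads. Of the 2 tested of 4 haemocyte markers 1 rose, with sums of 4.17 to 6.01 CPM in Gli-RNAi and 3.61 to 4.02 CPM in Control libraries (1.24 to 1.85 CPM in Gli-RNAi and 1.73 to 2.03 CPM in Control libraries without Pxn, which rose), and He had 0 reads. None of 4 germline genes had enough reads to be tested, with sums of 0.522 to 0.810 CPM in Gli-RNAi and 2.02 to 2.22 CPM in Control libraries. The part of cell makeup in the values below was not tested, and in bulk RNA fewer cells of a type and less RNA per cell cannot be told apart.

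Most tetraspanin transcripts in the posterior midgut came from a few genes. Levels between genes are given as reads per kilobase of counted transcript per 1000000 scaled reads (RPKM), calculated here from the deposited counts. Tsp29Fb and Tsp29Fa, neighbours on chromosome arm 2L, stood first and second in every library. Tsp29Fb averaged 1340 ± 47.9 RPKM in Gli-RNAi libraries and 1234 ± 86.6 RPKM in Control libraries (SD, n = 3). Tsp29Fa averaged 873 ± 13.8 RPKM in Gli-RNAi libraries and 963 ± 74.0 RPKM in Control libraries. Below this pair came Tsp42Ed at 299 RPKM in Gli-RNAi and 221 RPKM in Control libraries, Tsp42Er at 219 RPKM in Gli-RNAi and 180 RPKM in Control libraries, and Tsp42Ec at 204 RPKM in Gli-RNAi and 174 RPKM in Control libraries. Tsp42Er and Tsp42Ec were not apart beyond their spread in Control libraries, where they changed places in replicate 3. Tsp42Eq followed at 126 RPKM in Gli-RNAi and 146 RPKM in Control libraries. Further down, Tsp86D, Tsp39D, Tsp3A and Tsp97E lay at 7.02 to 11.3 RPKM in Gli-RNAi and 7.06 to 10.35 RPKM in Control libraries. Tsp86D stood above Tsp39D in each Gli-RNAi library and below it in each Control library. Tsp3A and Tsp97E, below Tsp39D in every library, changed places between libraries. At the other end, 21 genes passed the filter on low counts, and the tested gene with the lowest level, Tsp96F, had 0.985 RPKM in Gli-RNAi and 1.24 RPKM in Control libraries.

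The 32 genes summed to 3309 ± 49.4 RPKM in Gli-RNAi libraries and 3073 ± 190 RPKM in Control libraries, and 1 Control library, at 3289 RPKM, lay within the range of the Gli-RNAi libraries (3272 to 3365 RPKM). Tsp29Fb made up 40.5% ± 0.913 of the sum in Gli-RNAi libraries and 40.2% ± 0.487 in Control libraries. Tsp29Fa made up 26.4% ± 0.277 in Gli-RNAi libraries and 31.3% ± 0.640 in Control libraries. The 16 counted genes of the Tsp42E row, which lie side by side on chromosome arm 2R, made up 31.8% ± 0.763 in Gli-RNAi libraries and 27.2% ± 0.776 in Control libraries. Their summed level was 1053 ± 12.0 RPKM in Gli-RNAi libraries and 834 ± 27.7 RPKM in Control libraries, with no overlap between the conditions. The 16 genes outside this row summed to 2257 ± 58.1 RPKM in Gli-RNAi libraries and 2239 ± 163 RPKM in Control libraries, and those values overlapped.

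**Figure D1:**
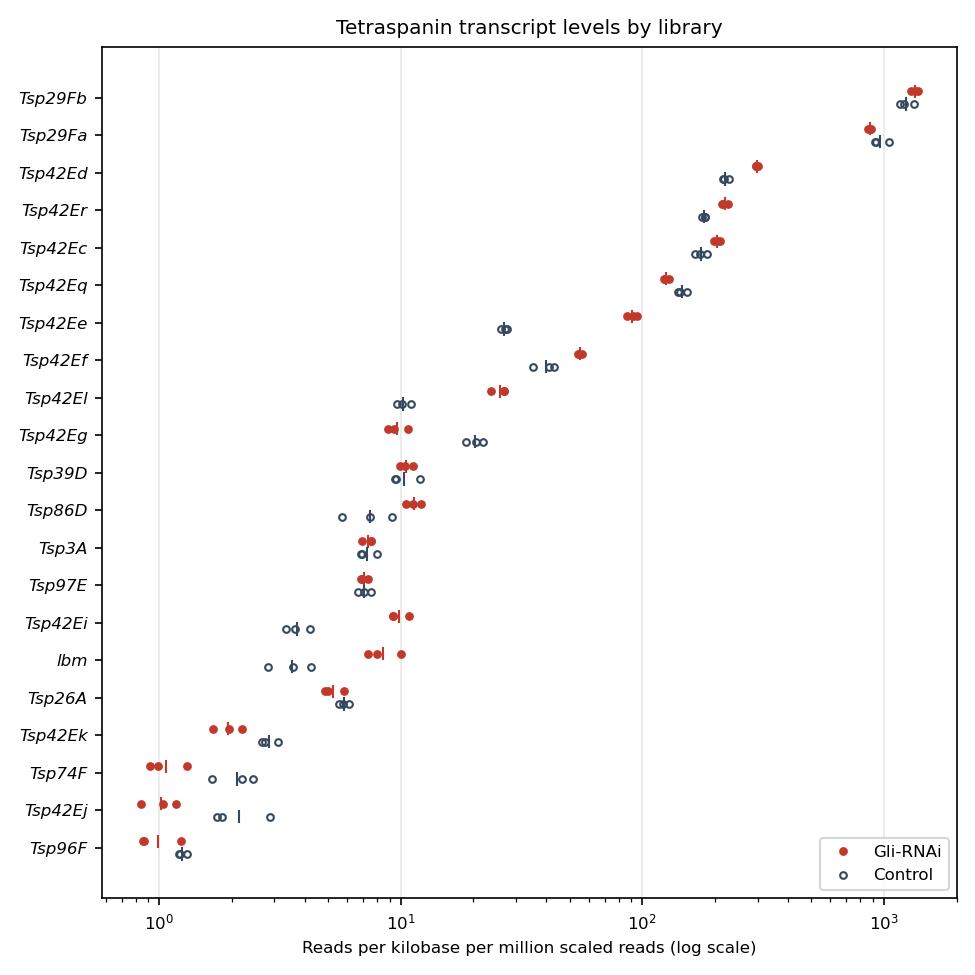
Levels of the 21 tested tetraspanin genes in each library, in RPKM on a log scale. Filled red points are Gli-RNAi libraries, open blue points Control libraries, and the short vertical lines are the means of 3 libraries. Genes run down the page by their mean level, with Tsp29Fb and Tsp29Fa at the top and Tsp96F at the bottom, and the points of Tsp42Ee, Tsp42El, Tsp42Ei and lbm in Gli-RNAi libraries lie well to the right of those in Control libraries.

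Of the 21 tetraspanins tested, 9 rose, 5 fell and 7 did not pass the test at an adjusted p under 0.05. Of the 8236 genes tested, 27.6% rose and 26.8% fell, while 42.9% of the tested tetraspanins rose and 23.8% fell. The share that fell was near the background. At least 2-fold, 4 tetraspanins (19.0%) rose and 1 (4.76%) fell, against 5.55% and 7.44% of all genes tested. The libraries of the conditions did not overlap for 15 of the 21 (71.4%), and for 60.4% of all genes tested. The median log2 fold change was 0.03 for the tetraspanins and 0.03 for all genes, and the median absolute log2 fold change was 0.44 against 0.30. With library totals as the only scaling, which moved the median of all genes by 0.19, 10 tetraspanins rose and 3 fell, and 3737 of all genes rose and 1512 fell. Without Control replicate 3, 22 tetraspanins were tested, 11 rose and 3 fell, and their median log2 fold change was 0.16, while 29.3% of all genes tested rose, 29.6% fell and their median was 0.0153.

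**Figure D2:**
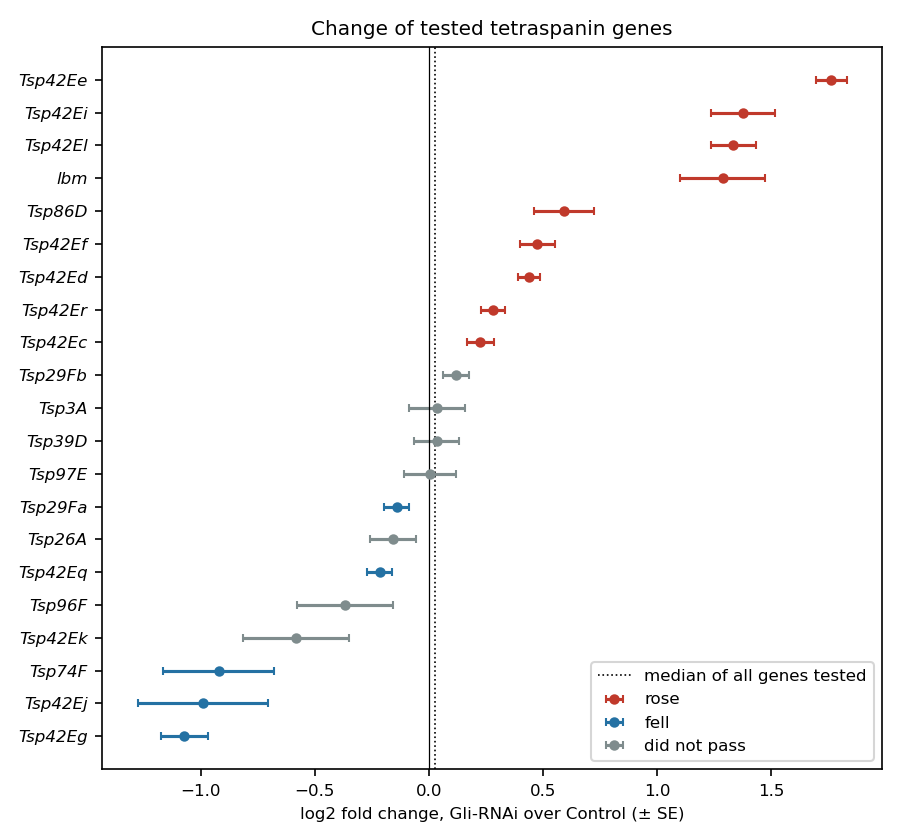
Log2 fold change (x axis, Gli-RNAi over Control) of the 21 tested tetraspanin genes, with bars for the SE from the edgeR fit. Red points rose, blue points fell and grey points did not pass the test, and the dotted line is the median of all genes tested. Tsp42Ee, Tsp42Ei, Tsp42El and lbm stand apart at the high end between 1.29 and 1.76, and Tsp42Eg, Tsp42Ej and Tsp74F at the low end between -1.07 and -0.92.

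Most of the called tetraspanins belong to the Tsp42E row. The row is counted here from Tsp42Ec on, because Tsp42Ea and Tsp42Eb, which lie before it, are in loci shared with other genes. Counted so, the row runs over 59.67 kb, at 2R:2893952-2953618 in the coordinates of the deposited table, whose genome build is not named. It holds 13 genes on the plus strand and 3 on the minus strand. Of its 12 tested genes, 8 rose, 3 fell and 1 did not pass, and 4 were below the filter. Outside the row, 9 genes were tested, of which 1 rose, 2 fell and 6 did not pass, and 7 were below the filter. The median log2 fold change was 0.36 in the row and 0.00 outside it. This split was made with the results known and is a description.

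Tsp42Ee, the third counted gene of the row, changed most. It had 1281, 1240 and 1169 normalised counts in Gli-RNAi libraries, against 350, 366 and 371 in Control libraries. Every Gli-RNAi library lay far above every Control library, and the replicates of a condition were close together. Tsp42Ee rose by 1.76 ± 0.067 on the log2 scale (edgeR, adjusted p = 4.3e-11), which is 3.40-fold. Its level was 91.0 RPKM in Gli-RNAi and 26.8 RPKM in Control libraries. Among the 32 genes, which leave out Tsp2A, it ranked 7 in each Gli-RNAi library and 8 in each Control library.

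Tsp42Ei and Tsp42El followed. Tsp42Ei had 117, 137 and 117 normalised counts in Gli-RNAi libraries, against 53.2, 45.9 and 42.1 in Control libraries. Tsp42El had 277, 244 and 277 normalised counts in Gli-RNAi libraries, against 113, 105 and 99.8 in Control libraries. Neither gene's conditions overlapped. The rise was 1.38 ± 0.140 for Tsp42Ei (edgeR, adjusted p = 1.4e-06) and 1.33 ± 0.098 for Tsp42El (adjusted p = 4.7e-08) on the log2 scale. The 3' end of Tsp42Ei overlaps CG33914 on the other strand by 18 bp, and CG33914 had 1 read in all libraries together.

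The gene lbm, next to Tsp42El, encodes Late bloomer, a tetraspanin of motor axons that helps them form synapses with muscle in the embryo. It had 99.3, 72.9 and 78.9 normalised counts in Gli-RNAi libraries, against 28.0, 35.6 and 42.1 in Control libraries. The conditions were apart, with more spread between replicates than for Tsp42El. It rose by 1.29 ± 0.187 on the log2 scale (edgeR, adjusted p = 4.6e-05). None of the 4 tested neuronal markers passed the test, and which cells the reads of lbm came from was not tested.

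The 3 most abundant genes of the row rose by less. Tsp42Ed had 2938, 2881 and 2882 normalised counts in Gli-RNAi libraries, against 2121, 2102 and 2209 in Control libraries, a log2 fold change of 0.44 ± 0.049 (edgeR, adjusted p = 3.3e-06). Tsp42Er had 1831, 1719 and 1745 normalised counts in Gli-RNAi libraries, against 1428, 1466 and 1464 in Control libraries, a log2 fold change of 0.28 ± 0.053 (adjusted p = 0.00044). Tsp42Ec had 1952, 2010 and 2079 normalised counts in Gli-RNAi libraries, against 1718, 1629 and 1828 in Control libraries, a log2 fold change of 0.23 ± 0.057 (adjusted p = 0.0042). In all 3 genes the lowest Gli-RNAi library stood above the highest Control library, but for Tsp42Ec the gap was narrow. Without Control replicate 2 the log2 fold change of Tsp42Ec was 0.15 (adjusted p = 0.06). Tsp42Ef rose by 0.48 ± 0.077 (adjusted p = 0.00012), with averages of 718 ± 12.5 normalised counts in Gli-RNAi and 519 ± 52.0 in Control libraries.

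The row also held 3 genes that fell. Tsp42Eg lies 2 places from Tsp42Ee, with Tsp42Ef between them, and had 108, 123 and 103 normalised counts in Gli-RNAi libraries, against 237, 215 and 253 in Control libraries. All Gli-RNAi libraries were low and the conditions did not overlap. Tsp42Eg fell by 1.07 ± 0.103 on the log2 scale (edgeR, adjusted p = 7.4e-07).

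Tsp42Ej, also called sunglasses, is a lysosomal tetraspanin that takes part in the breakdown of rhodopsin in photoreceptors. It had 12.6, 11.2 and 9.07 normalised counts in Gli-RNAi libraries, against 19.6, 18.7 and 31.2 in Control libraries. The conditions were apart, and Control replicate 3 was well above the other Control libraries. Tsp42Ej fell by 0.99 ± 0.286 on the log2 scale (edgeR, adjusted p = 0.0094), and without Control replicate 3 its log2 fold change was -0.76 (adjusted p = 0.054). Tsp42Eq fell by 0.22 ± 0.056 (adjusted p = 0.0049), with averages of 1308 ± 31.3 normalised counts in Gli-RNAi and 1522 ± 68.3 in Control libraries. With library totals as scaling its log2 fold change was -0.03 (adjusted p = 0.69). Tsp42Ek, between Tsp42Ej and Tsp42El, averaged 15.8 ± 2.17 normalised counts in Gli-RNAi and 23.2 ± 1.86 in Control libraries, with no overlap, and its log2 fold change of -0.58 ± 0.232 missed the threshold (adjusted p = 0.056).

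**Figure D3:**
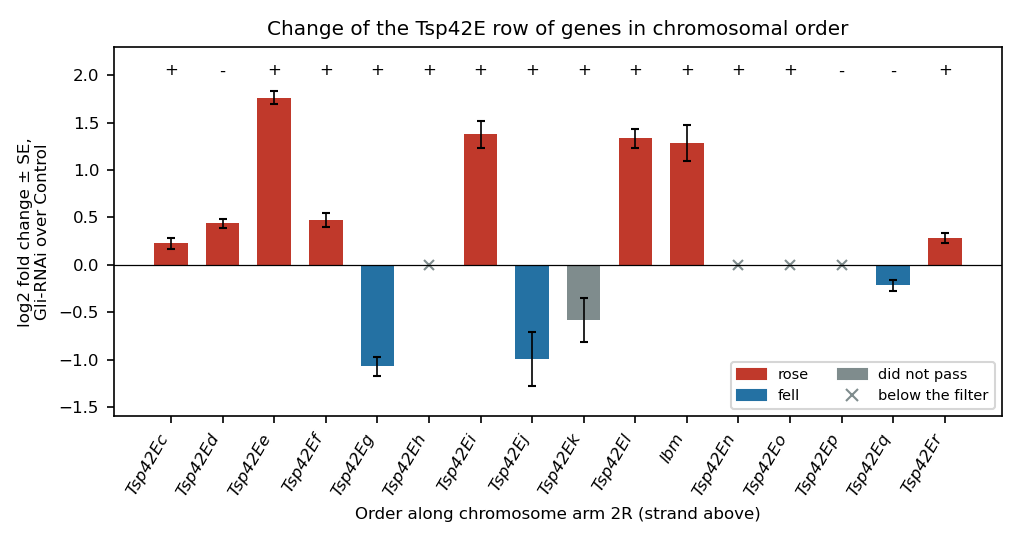
Log2 fold change with SE (y axis, Gli-RNAi over Control) of the 16 counted genes of the Tsp42E row in their order along chromosome arm 2R (x axis), with the strand of each gene above. Red bars rose, blue bars fell, the grey bar did not pass the test and crosses mark genes below the filter on low counts. Some neighbours differ in direction, as at Tsp42Ee and Tsp42Ef (1.76 and 0.48) beside Tsp42Eg (-1.07). Others share it, as at Tsp42El (1.33) beside lbm (1.29). Tsp42Ek (-0.58), on the other side of Tsp42El, did not pass the test.

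Some neighbours along the row thus went in different directions, and others in the same direction. In chromosomal order the first 4 counted genes, Tsp42Ec to Tsp42Ef, rose, Tsp42Eg fell, Tsp42Ei rose and Tsp42Ej fell. Then Tsp42El and lbm rose, and at the far end Tsp42Eq fell and Tsp42Er rose. The span holds 3 loci that are not tetraspanins. Only Pgant3, a glycosyltransferase gene that starts O-linked glycan chains, was tested among them (named outside the rule for genes given by name), and it rose by 1.31 on the log2 scale (edgeR, adjusted p = 3.2e-09). The loci CG12842 and CG33914 were below the filter.

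Outside the row, the most abundant pair changed little. Tsp29Fb (2L:8937398-8939746 in the deposited coordinates) had 15334, 16471 and 15937 normalised counts in Gli-RNAi libraries, against 14374, 13803 and 15799 in Control libraries. The conditions overlapped, since Control replicate 3 stood above Gli-RNAi replicate 1. Its log2 fold change of 0.12 ± 0.055 did not pass the test (edgeR, adjusted p = 0.086), and without Control replicate 3 it was 0.18 (adjusted p = 2.6e-05). Tsp29Fa (2L:8934841-8936096) had 8754, 8897 and 8620 normalised counts in Gli-RNAi libraries, against 9198, 9270 and 10519 in Control libraries. The conditions did not overlap, but the gap was narrow beside the spread of the Control libraries. Tsp29Fa fell by 0.14 ± 0.055 on the log2 scale (adjusted p = 0.043), kept its call under 6 of the 15 alternatives, and had a log2 fold change of -0.08 without Control replicate 3 (adjusted p = 0.064) and of 0.05 with library totals (adjusted p = 0.35).

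Tsp86D, Tsp3A and Tsp26A are the fly members of the class of tetraspanins that carries extra cysteines in the large loop. They bring the protease Kuzbanian, the fly relative of mammalian ADAM10, to the cell surface, where it cuts Notch and its ligands. Tsp86D (3R:6694434-6696232) had 177, 205 and 191 normalised counts in Gli-RNAi libraries, against 96.6, 126 and 156 in Control libraries. The Control libraries were widely spread, and the conditions did not overlap. Tsp86D rose by 0.59 ± 0.132 on the log2 scale (edgeR, adjusted p = 0.0017). Tsp3A averaged 86.2 ± 3.98 normalised counts in Gli-RNAi and 85.1 ± 7.31 in Control libraries, with a log2 fold change of 0.03 ± 0.123 (adjusted p = 0.83). Tsp26A averaged 153 ± 14.95 normalised counts in Gli-RNAi and 171 ± 8.20 in Control libraries, with a log2 fold change of -0.16 ± 0.100 (adjusted p = 0.21). Its transcript overlaps that of Gal, a beta-galactosidase gene on the other strand, by 167 bp. Gal had 5736 reads in the Gli-RNAi libraries together and 8893 in the Control libraries, while Tsp26A had 542 in the Gli-RNAi and 410 in the Control libraries. Since the strand setting of the counting is not given in the sources used here, the value of Tsp26A is uncertain. That Tsp86D rose and Tsp3A and Tsp26A did not pass was not tested as a difference between the genes.

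Tsp74F (3L:17884920-17888954) was one of the scarcest tetraspanins tested. It had 14.5, 13.5 and 19.1 normalised counts in Gli-RNAi libraries, against 32.2, 24.4 and 35.9 in Control libraries. Despite the few reads the conditions were apart, and it fell by 0.92 ± 0.245 on the log2 scale (edgeR, adjusted p = 0.0056). The other tested genes outside the row did not pass the test, and the values of their conditions overlapped. Tsp96F averaged 26.0 ± 5.66 normalised counts in Gli-RNAi and 32.8 ± 1.32 in Control libraries (log2 fold change -0.37 ± 0.212, adjusted p = 0.16). Tsp97E averaged 98.2 ± 3.82 normalised counts in Gli-RNAi and 98.6 ± 6.15 in Control libraries (log2 fold change 0.00 ± 0.114, adjusted p = 0.98). Tsp39D averaged 242 ± 15.1 normalised counts in Gli-RNAi and 237 ± 33.4 in Control libraries (log2 fold change 0.03 ± 0.100, adjusted p = 0.80).

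**Figure D4:**
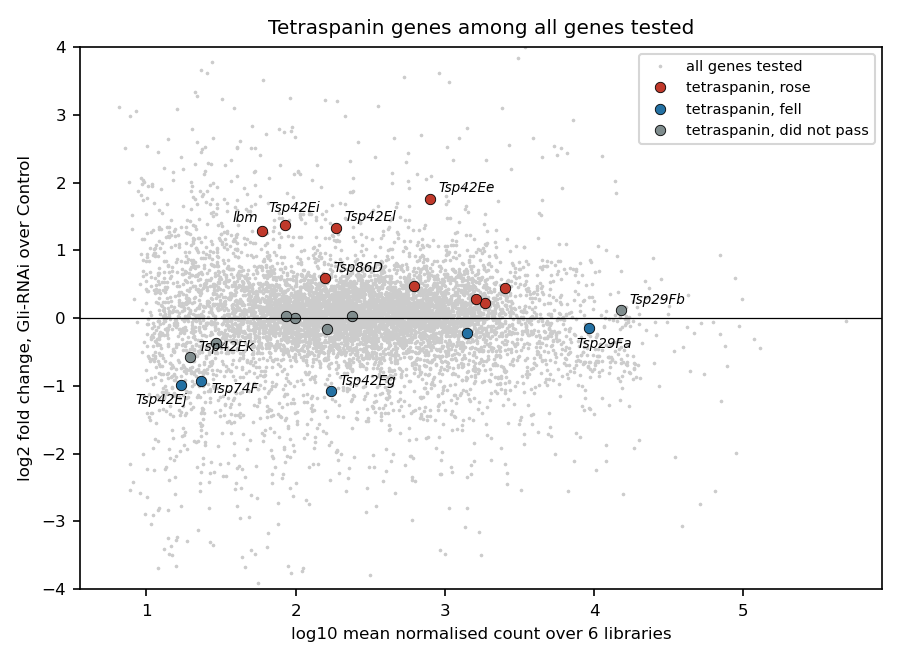
Log2 fold change (y axis, Gli-RNAi over Control) against the log10 of the mean normalised count over 6 libraries (x axis) for all 8236 genes tested in light grey, with the 21 tested tetraspanins as large points. Red points rose, blue points fell and dark grey points did not pass the test, and 49 genes with an absolute log2 fold change over 4 are outside the plotted range. The most abundant tetraspanins, Tsp29Fb and Tsp29Fa, are the points farthest right and lie near 0.

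The remaining 11 genes were below the filter. Tsp42A, Tsp66A and Tsp68C had no read in any library, which allows up to 0.0925 CPM of unscaled reads in the Gli-RNAi condition and 0.120 in the Control condition. Tsp33B had 2 reads in the Gli-RNAi libraries together and 1 in the Control libraries, Tsp47F had 1 in the Gli-RNAi and 0 in the Control libraries, and Tsp5D had 2 in the Gli-RNAi and 3 in the Control libraries. Tsp42Ep had 18, 17 and 11 reads in Gli-RNAi libraries, against 5, 5 and 6 in Control libraries, and the ratio of its scaled totals was 1.95 (95% counting interval 1.08 to 3.69). It overlaps its neighbour Tsp42Eo on the other strand by 186 bp, so the reads of both are uncertain. Tsp42Eo had 22 reads in the Gli-RNAi libraries and 14 in the Control libraries, a ratio of 1.07 (0.521 to 2.25). Tsp42Eh had 3, 2 and 2 reads in Gli-RNAi libraries, against 3, 5 and 5 in Control libraries, a ratio of 0.365 (0.123 to 0.984). Tsp42En had 9 reads in the Gli-RNAi and 14 in the Control libraries, a ratio of 0.436 (0.166 to 1.08), and Tsp66E had 12 in the Gli-RNAi and 16 in the Control libraries, a ratio of 0.508 (0.220 to 1.15). These intervals and limits cover counting error only, and at this depth these genes were not tested.

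The 32 genes have 50 transcript rows in all, 11 of the genes have several, and rows of a locus share reads. Among the tested genes, the rows of Tsp29Fa, Tsp29Fb and Tsp74F had nearly equal counts, and those of Tsp97E differed, with 351, 180 and 141 reads in the Gli-RNAi libraries together and 237, 120 and 96 in the Control libraries. The ratios of scaled totals of these rows were 1.004, 1.02 and 0.996. The authors' deposited table of changed genes lists 11 of the tetraspanins, 9 as higher and 2 as lower, with the same sign as here for each. In the authors' deposited table the log2 fold change of Tsp42Ee is 1.74 and that of Tsp42Eg is -1.10. Of the genes called here, 3 (Tsp29Fa, Tsp42Eq and Tsp74F) are not in the authors' deposited table.

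Of the tested genes for known partners of tetraspanins and for the paths they act in, most rose in the same libraries, where 27.6% of all genes tested rose. All 3 genes of the smooth septate junction rose, with log2 fold changes of 0.88 ± 0.061 for mesh, 0.77 ± 0.065 for Tsp2A and 0.66 ± 0.052 for Ssk (edgeR, adjusted p = 2.2e-08, 1.9e-07 and 9.3e-08). Tsp2A averaged 625 ± 7.33 RPKM in Gli-RNAi libraries and 367 ± 38.6 RPKM in Control libraries, which in each condition lies between Tsp29Fa and Tsp42Ed. Integrins, the receptors for the extracellular matrix, are bound by tetraspanins in mammals. Of 7 listed subunits 5 were tested, since mew was not found by name among the loci and ItgaPS5 was below the filter. Among those tested, 4 rose and 1 did not pass, with a median log2 fold change of 0.81 against 0.03 for all genes. The beta subunit gene mys rose by 1.18 ± 0.053 (adjusted p = 2.6e-10), the alpha subunit genes scb and ItgaPS4 by 0.85 ± 0.063 and 0.81 ± 0.229 (adjusted p = 5.3e-08 and 0.008), and the second beta subunit gene Itgbn by 0.60 ± 0.055 (adjusted p = 4.6e-07). The alpha subunit gene if had a log2 fold change of -0.05 ± 0.106 (adjusted p = 0.72).

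In the list for the cutting of Notch by Kuzbanian and gamma-secretase, 8 of 9 genes were tested, of which 7 rose and 1 fell, with a median log2 fold change of 0.54. The ligand gene Dl rose by 1.497 ± 0.089 (edgeR, adjusted p = 5.1e-09), the receptor gene Notch (N) by 1.40 ± 0.102 (adjusted p = 4.5e-08) and Psn, the gene of the gamma-secretase protease, by 0.63 ± 0.068 (adjusted p = 2.6e-06). The other ligand gene, Ser, fell by 0.88 ± 0.288 (adjusted p = 0.019), with 35 reads in the Gli-RNAi libraries together and 44 in the Control libraries, and its call was lost without Gli-RNAi replicate 1 and without Control replicate 2. The gene kuz, named outside that rule because Tsp86D, Tsp3A and Tsp26A act on its protein, rose by 0.53 ± 0.129 (adjusted p = 0.0033). Dl is also among the progenitor markers, whose sums in Gli-RNAi and Control libraries are given above. All 13 tested of 14 genes for endosomal sorting and released vesicles rose, with a median log2 fold change of 0.46. They include ALiX at 0.75 ± 0.054, Stam at 0.71 ± 0.059, Hrs at 0.70 ± 0.055 and Vps2 at 0.64 ± 0.064 (adjusted p = 4.2e-08, 1.8e-07, 1e-07 and 1.2e-06), which act in the sorting of membrane proteins into multivesicular endosomes. These lists were chosen with earlier results of the data known, and their counts are a description.

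**Figure D5:**
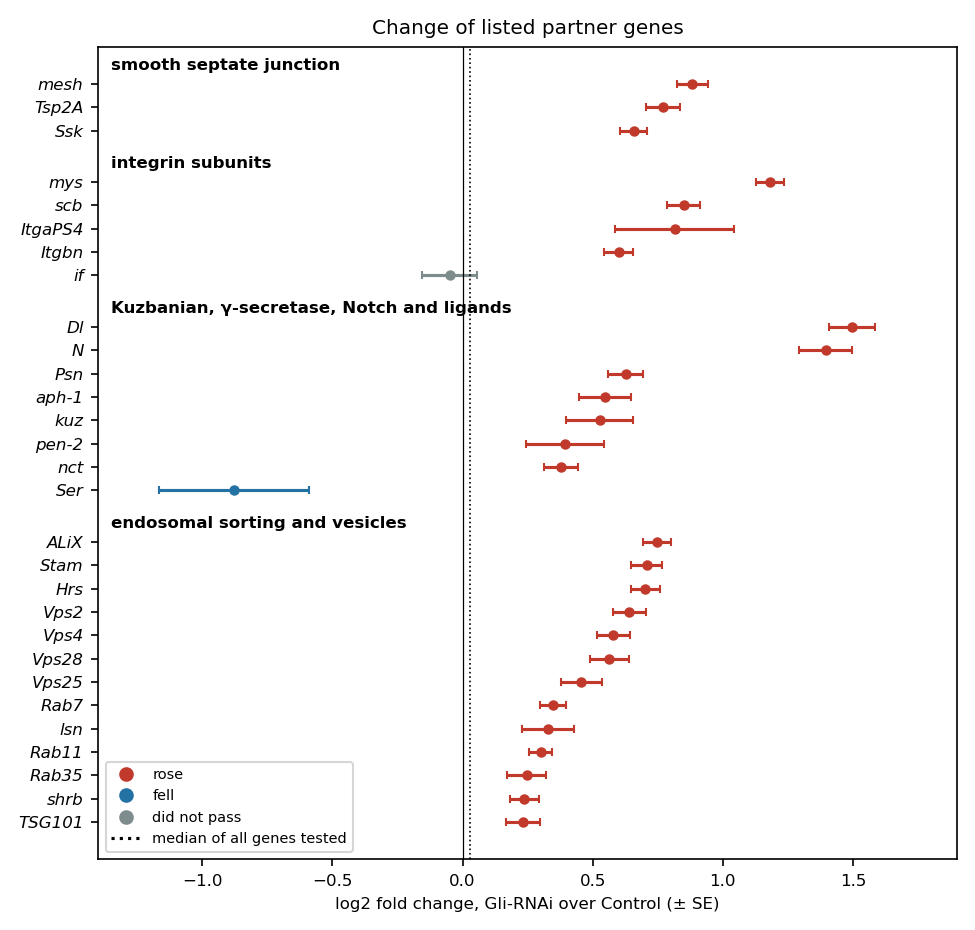
Log2 fold change (x axis, Gli-RNAi over Control) with SE of the tested genes of 4 lists, grouped down the page. The lists hold genes for tetraspanin partners and for the paths they act in. Red points rose, the blue point fell and the grey point did not pass the test, and the dotted line is the median of all genes tested. Points lie to the right of the dotted line except for if (-0.05) and Ser (-0.88).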

How the data were processed

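The deposited transcript table gives raw read counts per transcript and library, per the file headers, and the authors' deposited gene table gives log2 fold changes and p-values. DESeq was used, per the submitters' processing notes. Not given in the sources used here are the aligner, counting program, strand setting, filters and build. Where transcripts of a locus share an exon, its reads stand in the count of each. The table's 6 columns of normalised signal per library were not used.

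For each of 13822 loci the transcript with the highest mean count was used. All 32 tetraspanins matched a RefSeq gene identifier. Loci shared by several genes held 3.82% of the reads. Counts were tested in R 4.3.3 with the quasi-likelihood test of edgeR 4.0.16, TMM scaling, its filter on low expression (minimum count 10, minimum total 15) and Benjamini-Hochberg adjustment over the 8236 genes left. The SE is the absolute log2 fold change over the square root of F. RPKM were calculated here from counts, deposited transcript lengths and TMM-scaled totals. A count of 0 allows up to 3 reads per condition, and counting intervals are exact 95% intervals. No molecular identifiers are described in the labels, so PCR copies may be counted as separate reads.

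The 15 alternatives were other scalings (DESeq2 size factors, library totals, upper quartile), DESeq2 1.42.0, limma-voom in limma 3.58.1, no filter, sums over transcripts, a replicate block, leaving out mitochondrial and shared loci, and leaving out each library. Every tetraspanin was accounted for, with values per library for those called with an absolute log2 fold change of at least 0.5 and for the 5 with the highest level per length, and from each partner list at most 4 called genes and 2 others were named. The genes and lists were chosen with earlier results of these data known. Protein and promoter sequences were not analysed here.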

Additional observations from a re-analysis of the deposited data

Results flagged for a closer look

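Tsp42Ea was left out of the tetraspanins counted above because the deposited table places it in a locus shared with CG30159, and its transcript row carried a signal outside the comparisons of the report. That row had 61, 30 and 38 reads in Gli-RNAi libraries, against 18, 21 and 10 in Control libraries, and the ratio of scaled totals was 1.78 (95% counting interval 1.28 to 2.53). The longer counted row of the locus, CG30159, had 1818 reads in the Gli-RNAi libraries together and 1534 in the Control libraries, a ratio of 0.803 (0.750 to 0.860). The rows overlap in position and may share reads, so the value of Tsp42Ea is uncertain, and the difference between the conditions was not tested for it. None of the groups compared has enough libraries to look for a library far from the others.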

How the results depend on the processing

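Of the called tetraspanins, 10 (Tsp42Ed, Tsp42Ee, Tsp42Ef, Tsp42Eg, Tsp42Ei, Tsp42El, Tsp42Er, Tsp74F, Tsp86D and lbm) kept direction and call under all 15 alternatives. With library totals as scaling, 3 tetraspanins fell (10 rose), their median log2 fold change was 0.22, 3737 of all genes rose, and the log2 fold changes of Tsp29Fa and Tsp26A were 0.0507 and 0.0324; this alternative moved the median of all genes by 0.19. Leaving out 1 library at a time gave 21 or 22 tetraspanins tested, 8 to 11 that rose, 3 to 5 that fell and a median of 0.0040 to 0.16, while 23.7% to 29.3% of all genes rose and 24.2% to 29.6% fell, and the extremes of 3 and 0.16 came without Control replicate 3. Same-numbered libraries did not deviate together (correlations over 8236 genes of -0.0722, 0.0155 and -0.0713). With 3 libraries per condition, this cannot tell whether same-numbered libraries were prepared together. With a replicate block 9 tetraspanins rose and 4 fell, the call lost among them being Tsp29Fa (-0.14, adjusted p = 0.076), and 2168 of all genes rose and 2113 fell. Of the genes that did not pass, Tsp97E changed sign with DESeq2 size factors (-0.0136), the DESeq2 Wald test (-0.0185) and the replicate block (-0.0099). With 1 library left out, the log2 fold changes of Tsp97E, Tsp39D and Tsp3A lay between -0.0789 and 0.0495, -0.0689 and 0.137, and -0.0393 and 0.0968. Tsp29Fa lost its call under 9 alternatives, library totals included, and Tsp29Fb gained one under 3 (0.31 with library totals, 0.14 with no filter, 0.18 without Control replicate 3). Tsp42Ek passed with DESeq2 size factors (adjusted p = 0.049). Below the filter, Tsp42Ep passed without Control replicate 3 or Gli-RNAi replicate 3 (adjusted p = 0.029 and 0.048), and Tsp42Eh with sums over transcripts (adjusted p = 0.011). The transcript rows of Tsp42Eh share reads, so their sum counts reads more than once. With no filter, where reads are not summed, Tsp42Eh did not pass (adjusted p = 0.11). In the Notch list 0 genes fell under library totals, the DESeq2 Wald test, and without Gli-RNAi replicate 1 or Control replicate 2. The cause of these changes was not tested. Depth limits the 11 genes below the filter, and among tested tetraspanins the lowest count in a library was 10 reads.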

Other observations

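Other loci related to the family by annotation were nearly silent in these libraries. TM4SF, whose symbol does not begin with Tsp, had 7, 3 and 1 reads in Gli-RNAi libraries, against 6, 4 and 6 in Control libraries. CG31600, for which RefSeq gives tetraspanin synonyms, had no read in any library, and neither did the locus shared by Tsp42Eb and CG30160. Replicates of the tested tetraspanins were about as close together as those of all genes tested, with a median coefficient of variation of 6.23% in Gli-RNAi libraries and 7.69% in Control libraries, against 5.35% and 8.60% for all genes.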
